A study of Mus musculus with 4 samples.

Results

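The heat shock proteins and their J-domain co-chaperones were described in whole-brain microglia of C57BL/6J males. Mice treated with PBS formed the control group and mice treated with OVA the allergy group. An intranasal challenge preceded the isolation of the cells by 1 day, and both treatments were studied at the ages labelled P30 and P70. Each group pooled 4 samples, so that PBS and OVA at each age made 4 groups, with 1 array for each. There were no replicates, so no test was made. Every difference given is a difference between 2 pooled arrays, and the number of arrays limits the precision. The genes were chosen by symbol, taking the families Hspa, Hspb, Hsp90, Hsph1, Hspd1, Hspe1, Hspbp1, the heat shock factors and Dnaja, Dnajb and Dnajc, without pseudogenes. This gave 70 genes of the 17662 named genes kept. Levels and differences are in log2 intensity, and genes whose mean level over the 4 arrays reached a floor of 7.18, the median of all such means, are called expressed. Of the 70 members 49 were expressed, among 8831 expressed genes in all, and 21 lay below the floor.

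Molecular chaperones bind unfolded stretches of other proteins and help them to fold, to cross membranes or to be handed to degradation. HSP70 proteins, the Hspa genes, do this in cycles of ATP hydrolysis. J-domain proteins, the Dnaj genes, deliver substrates and start the hydrolysis, and nucleotide exchange factors such as Hspbp1 and the HSP110 proteins reset the cycle. HSP90 acts later on selected clients, HSP60 with HSP10 forms a folding chamber in mitochondria, and small heat shock proteins hold unfolded proteins without ATP. Heat shock factor 1 induces many cytosolic members through heat shock elements when proteins misfold, and the unfolded protein response of the endoplasmic reticulum (ER) induces the ER members through ER stress elements.

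The arrays carried the markers of the labelled cell type. All 9 microglia markers found (10 were listed) were expressed, with a summed level between 18.91 and 19.32. None of the 6 neuron markers reached the floor, and the summed neuron level was 8.73 to 8.81. The 8 neutrophil markers were all expressed, with summed levels of 16.10 (PBS) and 14.46 (OVA) at P30 and of 19.76 (PBS) and 19.52 (OVA) at P70. The summed monocyte level was 10.60 and 10.74 at P30 and 14.32 and 14.46 at P70. Border-associated macrophage markers were highest in OVA at P70 (12.55, against 10.39 to 10.99 elsewhere). The summed level of the ependymal and choroid plexus markers was higher in OVA at both ages. It stood at 8.77 and 9.86 at P30 and at 8.84 and 12.10 at P70 (PBS first). Of the 5 markers found, Ttr alone was expressed, and Ttr alone was at least 1.5-fold higher in OVA at each age. The median OVA difference of the 5 was 0.15 at P30 and 0.37 at P70. In these pooled RNA samples, fewer cells of a type and less RNA per cell cannot be told apart.

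Promoter sequences are shown for the members in which letters of a stress element were found, because their levels are compared below. RefSeq promoters (GRCm38.p6, 250 bases before to 50 after a start) were given for 57 of the 70 members. The heat shock element was searched on both strands as 2 inverted repeats, GAANNTTC or TTCNNGAA, and as 3, in which the pair is followed at the same spacing by another GAA or TTC. The longer form stood in the promoters of 4 members (Dnajb6, Hspd1, Hspe1 and Hsph1). That is 7.02% of the 57, against 0.662% of the 27025 genes of the table. The ER stress element, CCAAT and CCACG with any 9 bases between them on either strand, stood in those of 3 members (Dnajc3, Hsp90b1 and Hspa5), 5.26% against 0.137% of all genes. The windows upstream of the start sites follow, 5′ to 3′ on the strand of the gene, with the matched letters in capitals.
Hspe1, chr1:55088049-55088086, plus strand: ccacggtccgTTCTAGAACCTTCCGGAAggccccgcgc
Hspd1, chr1:55088049-55088086, minus strand: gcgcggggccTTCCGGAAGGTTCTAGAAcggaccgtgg
Dnajb6, chr5:29735842-29735874, plus strand: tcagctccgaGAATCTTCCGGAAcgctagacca
Hspa5, chr2:34772015-34772053, plus strand: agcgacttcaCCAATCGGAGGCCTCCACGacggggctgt
Hsp90b1, chr10:86705523-86705666, minus strand: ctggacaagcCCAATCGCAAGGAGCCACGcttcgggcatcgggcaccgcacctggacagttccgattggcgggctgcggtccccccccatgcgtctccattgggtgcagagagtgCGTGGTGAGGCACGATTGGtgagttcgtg
Dnajc3, chr14:118937817-118937855, plus strand: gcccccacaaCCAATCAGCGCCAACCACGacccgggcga

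Hspe1 and Hspd1 are neighbours read in opposite directions, and the same 38 bases, read on opposite strands, lie upstream of both. Their capitals are made up of 2 overlapping matches, and Hsp90b1 has 2 separate matches, the one nearer the start in the reverse orientation. The match of Hsph1 lies after its start site and is not shown. A match describes letters and not a site that is bound. The pair of repeats, which is contained in the longer form, stood in 14 of the 57 members (24.6%) and in 17.0% of all genes of the table. The TATA box letters TATAAA, on either strand, stood in 3 of the 57 members (5.26%, against 15.7%). Of the 39 expressed members with a promoter, 5.13% held TATAAA, against 9.47% of expressed genes. For the pair of repeats these shares were 23.1% and 14.3%.

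At each age, the allergy group was set against its controls. Hspb3, a small heat shock protein known mainly from muscle, was higher in OVA at both ages, and few other members differed. At P30, 1 of the 49 expressed members was at least 1.5-fold higher in OVA and none at least 1.5-fold lower; of all expressed genes 0.645% were higher and 0.929% lower by that much (1.57% in either direction). At P70, 2 were higher (Hspb3 and Dnajc14) and none lower, against 4.04% and 1.25% of all expressed genes (5.29% in either direction). After median centring the split at P70 was 1 higher and 2 lower (Dnajb7 and Dnajc5g). The median difference of the expressed members was -0.016 at P30 and 0.068 at P70, where that of all expressed genes was -0.014 and 0.090. These shares and medians lie near those of all genes. Across the 49 members the OVA differences at P30 and P70 correlated at r = 0.14 (rho = 0.084), given as a description of genes measured on the same arrays. The P70 difference was at least 1.5-fold above the P30 difference in 3 members and below it in 1, against 7.82% and 2.29% of all expressed genes (10.1% in either direction). That split was 1 and 4 after median centring and 1 and 2 after centring along the level, which subtracts the smoothed difference of all expressed genes at the same mean level, so its balance depends on the scaling. Of the 8 neutrophil markers, 7 were at least 1.5-fold lower in OVA at P30 and 2 at P70. Of the 6 border-associated macrophage markers 3 were higher in OVA at P70, and Ttr, a choroid plexus marker, was higher by 1.87 at P30 and 4.12 at P70. Their part in the members' differences was not tested.

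**Figure D1:**
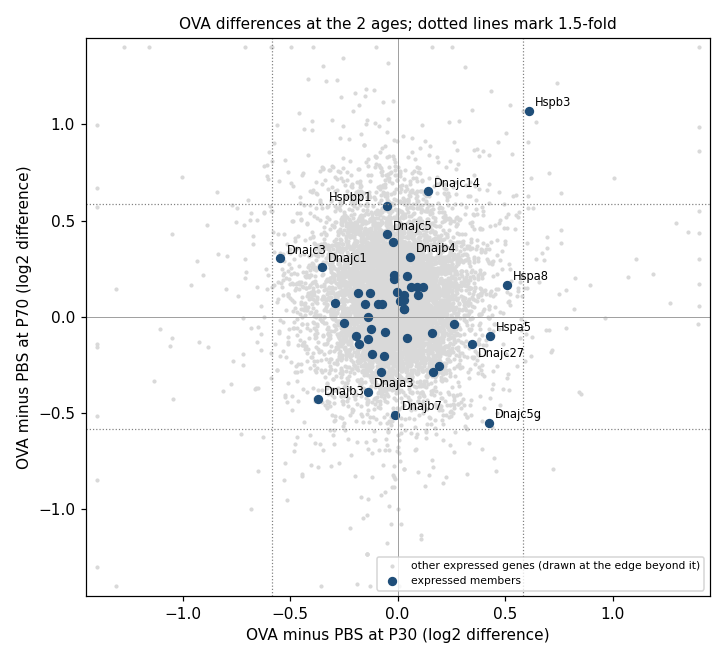
Log2 differences between OVA and PBS at P30 (horizontal) and at P70 (vertical) for the 49 expressed members (blue points) and the other expressed genes (grey points, drawn at the edge where they lie beyond it), each from 2 pooled arrays. Hspb3 is the sole member past 1.5-fold (dotted lines) at both ages, at 0.61 and 1.07.

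Of the heat shock factors, Hsf2 was measured by a probe set of 1 symbol, and Hsf1 was not analysed here. Hsf2 stood at 8.18 and 8.05 at P30 (PBS first, as in every such series of values) and at 8.15 and 8.27 at P70. All 4 values lay within 0.22 log2 units. Hsbp1, which encodes a small protein that binds heat shock factor 1, stood at 12.73, 12.81, 14.75 and 14.997 in the same order. Hsbp1 was therefore higher at P70 by 2.02 in PBS and 2.19 in OVA, and differed little between OVA and PBS.

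The stress-inducible list held 14 textbook targets of heat shock factor 1, of which 11 were among the members and 7 were expressed. None of the 7 was 1.5-fold apart between OVA and PBS at either age. Their median difference was 0.030 at P30 and 0.11 at P70. Hspa1a, the classical inducible HSP70, stood at 5.67 and 5.71 at P30 and at 5.80 and 5.60 at P70, below the floor on every array. Dnajb1, its inducible J-domain partner, stood at 7.47, 7.499, 7.51 and 7.62 in the order of arrays just used. Hsph1, an HSP110 exchange factor, stood at 7.74, 7.94, 7.91 and 7.66, and Hspb1 at 6.66, 6.70, 6.66 and 6.55, below the floor. For each of these 4 genes the 4 arrays lay within 0.28 log2 units. Dnajb4, a J-domain partner related to Dnajb1, stood at 7.76, 7.82, 7.97 and 8.29. The HSP110 member Hspa4l stood at 6.98, 6.88, 6.92 and 6.84, and the small heat shock protein Hspb8 at 6.98, 7.32, 7.001 and 7.03. At P70, 2 of the 7 (Hsp90aa1 and Hspe1) were at least 1.5-fold higher than at P30 in both treatments, near the 26.1% of all expressed genes that were. After centring along the level none of the 7 was higher and 1 (Hspa8) was lower. After quantile normalization 3 of the 7 were higher in PBS and 2 in OVA, and none lower. The immediate early genes, transcription factors and feedback regulators that respond to stimuli within minutes, gave another picture on the same arrays. Of 14 expressed genes, 10 were at least 1.5-fold higher in OVA at P30, against 0.645% of all expressed genes. Jun (1.99) and Fos (1.96) were among them, and the median of the 14 was 1.23. The lists were chosen with earlier results of these data known, so the contrast is a description. At P70 none of these 14 was 1.5-fold apart and their median was 0.19.

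**Figure D2:**
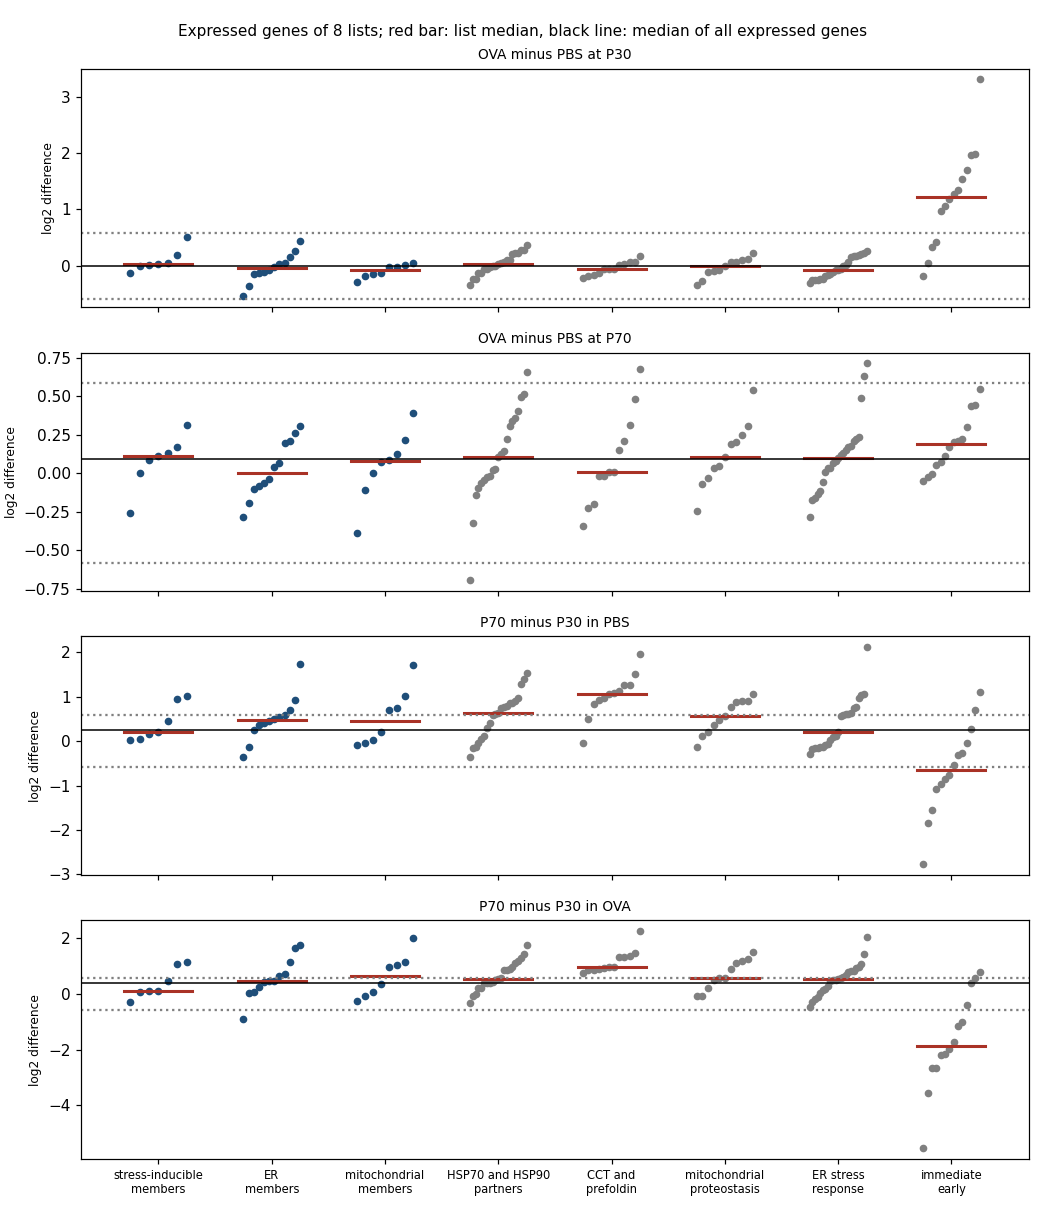
Log2 differences of the expressed genes of 8 lists (blue, lists of members; grey, other genes) in the 4 comparisons, 1 panel each, with the list median as a red bar, the median of all expressed genes as a black line and 1.5-fold as dotted lines. At P30 the 7 stress-inducible members lie between -0.14 and 0.51, whereas the immediate early genes have a median of 1.23. The lists were chosen with earlier results of these data known.

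Hspa8, the constitutive HSP70 of the cytosol, needs care. By the rule it was read from the brightest of 4 probe sets named Hspa8 alone, at 18.20 and 18.70 at P30 and at 18.65 and 18.82 at P70. PBS at P30 was the low array, with the other 3 within 0.17 of each other. The OVA difference was 0.51 at P30 and 0.17 at P70. The identifiers of these 4 probe sets carry chromosomes 1, 6 and 14, whereas RefSeq places the gene on chromosome 9. Over all named probe sets the identifier carried the chromosome of the gene in 99.7% of 17771, and among the 73 of the members in 69, the exceptions being these 4. The probe set of chromosome 9 carries Hspa8 together with 3 small nucleolar RNA genes. It stood at 12.01 and 12.56 at P30 and at 12.21 and 12.19 at P70, giving 0.54 and -0.015 for OVA minus PBS. A further probe set, shared with a predicted gene, gave 0.12 and -0.028. The higher value in OVA at P30 was therefore of like size on the probe set of the gene's own chromosome, and the age difference was not: P70 minus P30 in OVA was 0.11 by the rule and -0.37 there. The scaling of the arrays bears on the age differences too. Centred along the level, Hspa8 by the rule was 0.52 for OVA at P30 and -0.96 for age in OVA. After quantile normalization the values were 0.52 and 0.52, so the sign of its age difference depended on the scaling.

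**Figure D3:**
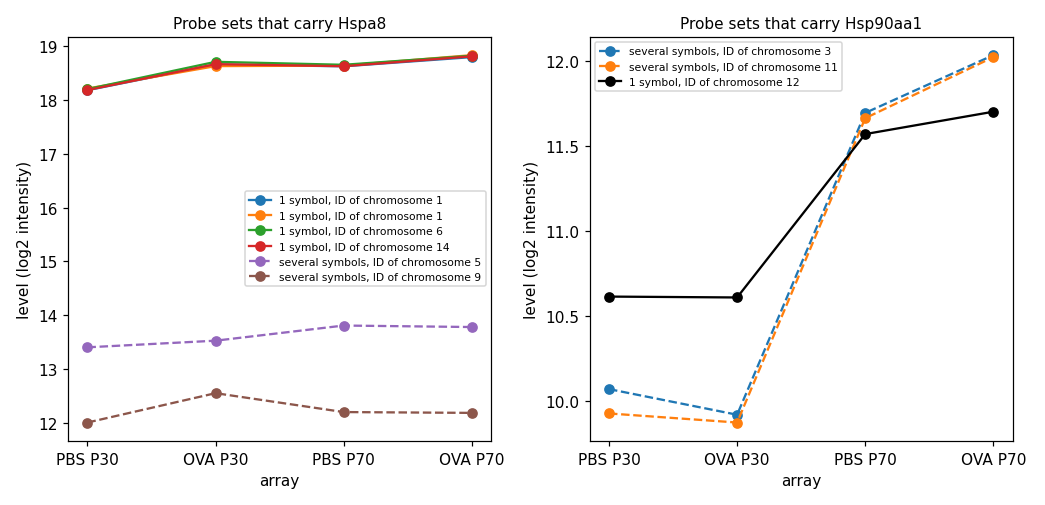
Log2 intensity on the 4 arrays of each probe set that carries Hspa8 (left) or Hsp90aa1 (right), with solid lines for probe sets of 1 symbol and dashed lines for those of several. The 4 solid Hspa8 lines lie between 18.18 and 18.83, and the probe set of chromosome 9 between 12.01 and 12.56.

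By the rule fixed for likeness, the expressed genes whose 4 values followed Hspa8 most closely were Fam241a, Acot10, Zfp36l2, Vamp3 and the pseudogene Llph-ps2. Each gene was centred on its own mean over the 4 arrays, and the root mean square distances were 0.058 to 0.072 log2 units. With 4 values per gene, many genes of 8831 come close to any pattern.

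The other expressed HSP70 members work in organelles or at ribosomes. Hspa5 (BiP), the HSP70 of the ER, stood at 10.84 and 11.27 at P30 and at 10.49 and 10.39 at P70. Both P70 arrays were below both P30 arrays, and OVA at P30 was the highest of the 4. Hspa9, the mitochondrial HSP70, stood at 8.64, 8.62, 9.38 and 9.59, with both P70 arrays above both P30 arrays. Hspa13, an HSP70-like protein of microsomes, went the same way, at 7.25, 7.13, 7.84 and 7.78, and its OVA value at P30 was under the floor. Hspa14, a ribosome-associated member, stood at 7.999, 7.94, 8.72 and 8.51. Hspa4, of the HSP110 group, stood at 10.81, 10.91, 11.21 and 11.32, and turned to -0.42 in PBS and -0.63 in OVA for age after centring along the level. None of these members apart from Hspa5 differed between OVA and PBS by more than 0.22.

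Of the 12 expressed ER members, none was 1.5-fold apart between OVA and PBS at either age. With age 10 of the 12 were above 0 in PBS, 4 of them by at least 1.5-fold, and 11 in OVA, with 5 higher and 1 (Hspa5) lower by that much. Of all expressed genes, 72.0% were above 0 in PBS and 76.6% in OVA, and 29.0% and 38.6% were higher by that much. After centring along the level 1 of the 12 was higher and 1 lower in PBS, and 3 and 2 in OVA. Hsp90b1 (GRP94), the HSP90 of the ER, stood at 14.52 and 14.37 at P30 and at 15.01 and 15.08 at P70. Dnajc3 (P58IPK), an ER co-chaperone that also inhibits the kinase PERK, stood at 8.73, 8.18, 9.66 and 9.96. OVA at P30 was thus its lowest array and OVA at P70 its highest. Hspa5, Hsp90b1 and Dnajc3 share the letters of the ER stress element printed above. For OVA minus PBS at P30 they differed by 0.43, -0.15 and -0.55, and for P70 minus P30 in OVA by -0.88, 0.71 and 1.78. Within the same arrays, Dnajc3 thus differed from Hspa5 by 2.66 more in the OVA age comparison, and by 3.05 more once each difference was centred along the level. Dnajb11 (ERdj3), a soluble ER partner of Hspa5, stood at 8.48, 8.36, 10.21 and 10.01, higher at P70 by 1.73 in PBS and 1.65 in OVA. Dnajb9 (ERdj4), which directs proteins to ER-associated degradation, stood at 12.14, 12.07, 12.60 and 12.31. Dnajc1, a J-domain protein of the ER membrane, stood at 9.68, 9.32, 10.21 and 10.47.

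The mitochondrial pair Hspd1 (HSP60) and Hspe1 (HSP10) shares the promoter window printed above. Hspd1 stood at 8.77 and 8.78 at P30 and at 8.79 and 8.87 at P70, nearly the same level throughout, and its age difference after centring along the level was -0.36 in PBS and -0.46 in OVA. Hspe1 stood at 9.66 and 9.52 at P30 and at 10.67 on both P70 arrays. The age difference of Hspe1 exceeded that of Hspd1 by 0.99 in PBS and 1.06 in OVA, and by 0.69 and 0.73 after centring along the level. Hspe1 has pseudogene copies, of which 5 probe sets were left out, and how far its own probe set can tell them apart was not tested. Dnajc15, a J-domain protein of the mitochondrial inner membrane, stood at 9.59, 9.40, 11.31 and 11.43. Its P70 arrays were higher by 1.72 in PBS and 2.03 in OVA. Dnaja3 (Tid1), the mitochondrial class A protein, stood at 7.76, 7.62, 7.96 and 7.57, with no order by age.

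Hsp90aa1, the inducible HSP90 of the cytosol, stood at 10.62 and 10.61 at P30 and at 11.57 and 11.70 at P70. Its age difference was 0.96 in PBS and 1.09 in OVA. A pair of further probe sets, each shared with a predicted gene and with identifiers of chromosomes 3 and 11, gave age differences between 1.62 and 2.15, so the size depends on the probe set. Hsp90ab1 was not analysed here.

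Hspb3 had the widest range of the expressed members. It stood at 7.37 and 7.98 at P30 and at 9.38 and 10.46 at P70. The 4 arrays were ordered by age and, within each age, OVA lay above PBS. It was 1.53-fold higher in OVA at P30 and 2.10-fold at P70, and 4.04-fold higher at P70 in PBS and 5.56-fold in OVA. These differences stayed past 1.5-fold after median centring, quantile normalization and centring along the level. Hspb2, a muscle-enriched relative, stood at 8.57, 8.51, 8.44 and 8.36 and differed by no more than 0.15 in any of the 4 comparisons. Hspb11, which despite its symbol is a subunit of intraflagellar transport, was higher at P70 by 0.63 in PBS and 0.69 in OVA. The other 5 small members were below the floor.

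**Figure D4:**
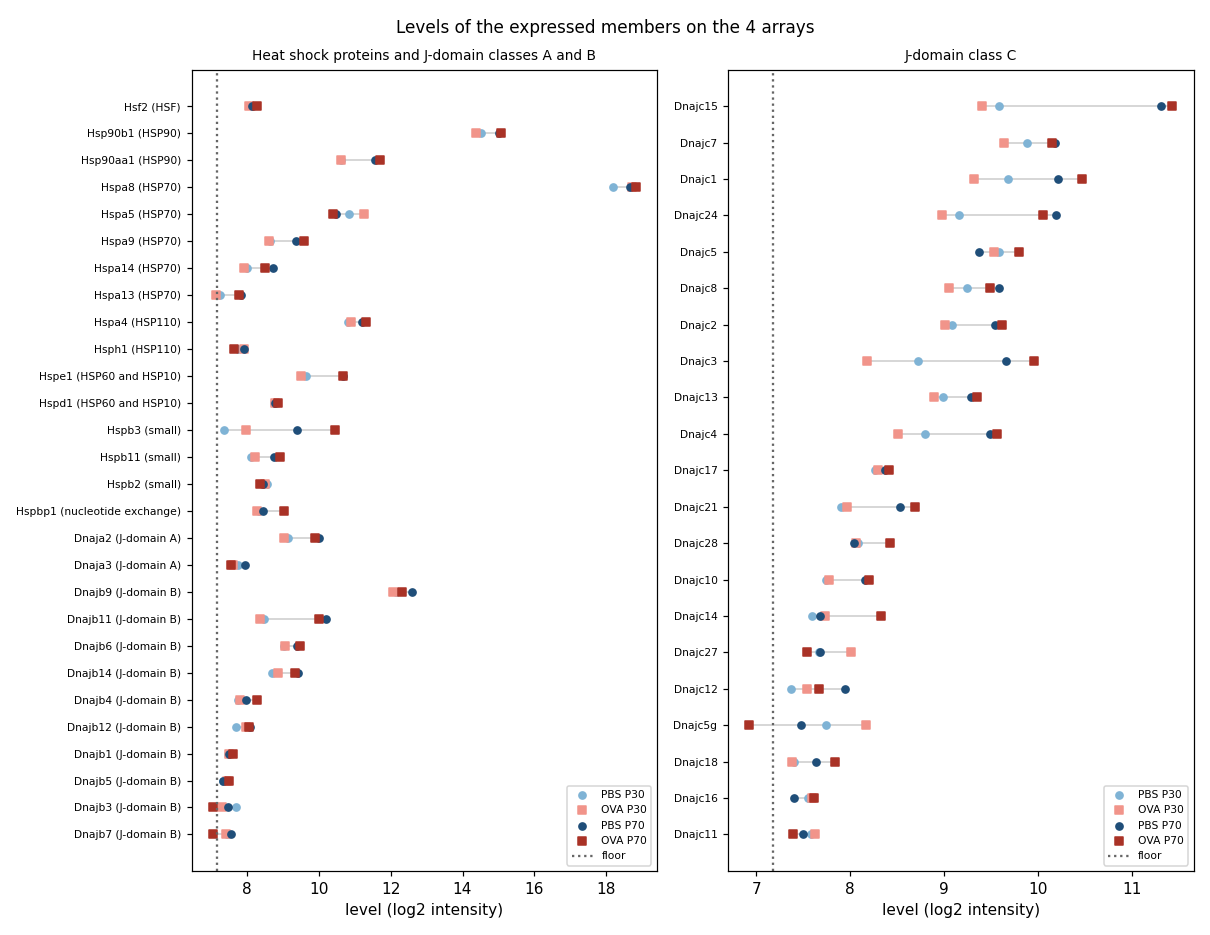
Levels in log2 intensity (horizontal) of the 49 expressed members on the 4 arrays, by subfamily (circles PBS, squares OVA; light P30, dark P70), with the floor of 7.18 as a dotted line. The dark symbols of Hspb3, Dnajb11 and Dnajc15 lie far to the right of the light ones, and those of Hspa5 to the left.

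Hspbp1, a nucleotide exchange factor of HSP70, stood at 8.33, 8.28, 8.46 and 9.04. OVA at P70 was apart from the other 3 arrays, 0.58 above PBS at that age and just under 1.5-fold. Dnajc14, which helps receptors leave the ER, was likewise highest in OVA at P70. It stood at 7.59, 7.73, 7.67 and 8.33, and was 1.57-fold higher in OVA at P70. Dnajc5, the cysteine-string protein of secretory vesicles, stood at 9.58, 9.53, 9.37 and 9.80, an OVA difference of 0.43 at P70. Dnajc28 differed by 0.39 and Dnajb4 by 0.31 in that comparison. On the low side at P70 were Dnajc5g (-0.55), Dnajb7 (-0.51) and Dnajb3 (-0.43), all known mainly from testis, with Dnaja3 at -0.39. Dnajc5g, Dnajb7 and Dnajb3 were each under the floor in OVA at P70, so the sizes of their differences are uncertain. At P30 the members with the lowest values after Dnajc3 were Dnajb3 (-0.37), Dnajc1 (-0.35), Dnajc4 (-0.29), Dnajc7 (-0.25) and Dnajc8 (-0.20), and those with the highest after Hspb3, Hspa8 and Hspa5 were Dnajc5g (0.42), Dnajc27 (0.35) and Dnajb12 (0.26).

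With the treatment held the same, the P70 array was set against the P30 array. Many members were higher at P70, and so were many other genes. In PBS, 15 of the 49 (30.6%) were higher by 1.5-fold or more and none lower, and of all expressed genes 29.0% were higher and 3.03% lower (32.1% in either direction). The split was 7 higher and 1 lower after median centring and 3 and 3 after centring along the level. After quantile normalization it was 17 and 0, or 34.7% of the members against 30.5% of all expressed genes in either direction. In OVA, 18 members (36.7%) were higher and 2 lower, Hspa5 and Dnajc5g, against 38.6% and 4.40% of all expressed genes (43.0% in either direction). That split was 9 and 7 after median centring and 5 and 6 after centring along the level. After quantile normalization it was 19 and 2, or 42.9% of the members against 41.5% of all expressed genes. The split with age thus depended on the scaling. A set of 13 members was higher in both treatments, 86.7% of the PBS list and 72.2% of the OVA list: Dnaja2, Dnajb11, Dnajc15, Dnajc21, Dnajc24, Dnajc3, Dnajc4, Hsp90aa1, Hspa13, Hspa9, Hspb11, Hspb3 and Hspe1. In all, 26.5% of the expressed members and 26.1% of all expressed genes were higher in both. The members' shares were near those of all genes, so the count is no result about the chaperones. All 8 neutrophil markers were at least 1.5-fold higher at P70 in both treatments, with medians of 3.60 and 4.22; their part in the age differences was not tested.

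The age difference grew with the level across the expressed genes. With no filter, over all 17662 genes kept, its median was -0.029 in PBS and -0.040 in OVA. Between the floor and 8 the median was 0.029 in PBS and 0.055 in OVA, and from 10 to 12 it was 0.78 and 1.02. Of the 49 members, 25 kept the sign of the age difference in PBS under every scaling tried, and 27 in OVA. For the 8831 expressed genes the median was 0.25 in PBS and 0.38 in OVA, and for the expressed members 0.37 and 0.44. Differences centred along the level therefore say how a member compared with genes of like signal. On that scale 3 members were at least 1.5-fold higher in PBS, Dnajb11 (1.23), Dnajc15 (0.99) and Hspb3 (1.76), and 3 lower, Hspa5 (-1.11), Dnajc5 (-0.75) and Hspa8 (-0.63). In OVA, 5 were higher: Hspb3 (1.81), Dnajc3 (1.16), Dnajc15 (1.08), Dnajb11 (1.00) and Hspa13. Lower were Hspa5 (-1.89), Dnajc5g (-1.30), Hspa8 (-0.96), Dnajb9 (-0.87), Hspa4 and Dnajc27. The members so counted were 12.2% of the expressed members in PBS and 22.4% in OVA. Of all expressed genes, 20.5% and 24.2% were past 1.5-fold on this scale, so the counts are no result about the chaperones. Hspa5, Hspa8, Dnajb11, Dnajc15 and Hspb3 thus stood past 1.5-fold in both treatments on this scale, Hspa5 and Hspa8 on the lower side. Hsp90b1 turned from 0.71 to -0.46 in OVA and from 0.49 to -0.54 in PBS, and Hsp90aa1 came to 0.13 in PBS and 0.038 in OVA.

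**Figure D5:**
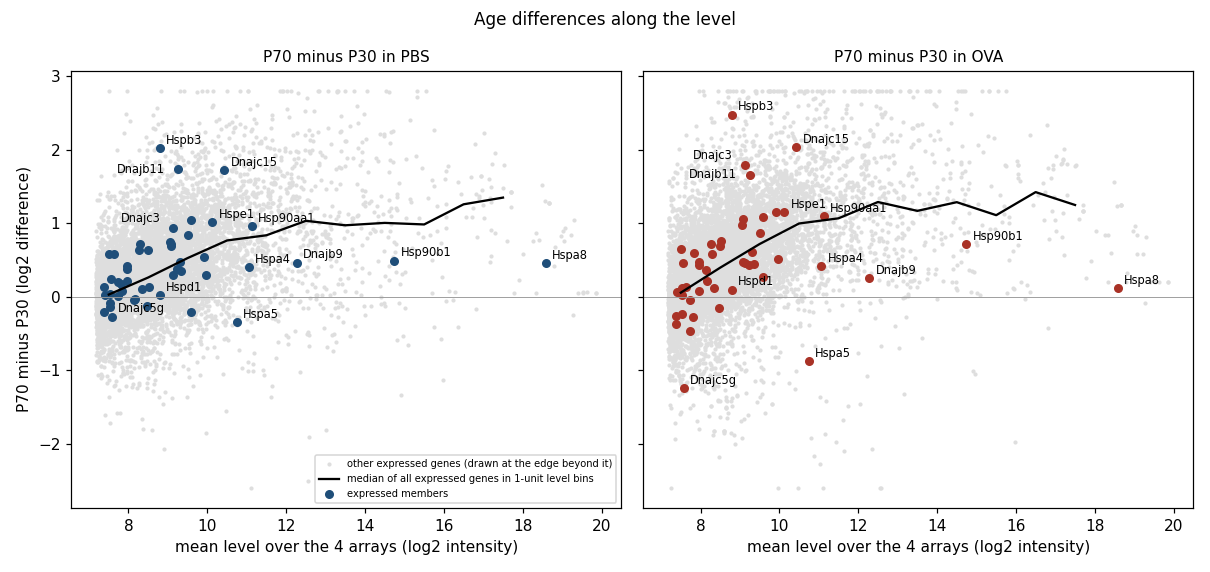
P70 minus P30 log2 difference (vertical) against the mean level in log2 intensity (horizontal) in PBS (left) and OVA (right) for the expressed members (coloured) and the other expressed genes (grey, drawn at the edge where they lie beyond it), with the median of all expressed genes by level as a line. Hspa5 lies below zero in both panels, at -0.35 and -0.88, and Dnajb11, Dnajc15 and Hspb3 lie above the line.

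The J-domain proteins are the largest group, with 33 expressed genes of 43 members. Of class A, Dnaja2, a general partner of HSP70 in the cytosol, stood at 9.16 and 9.02 at P30 and at 9.998 and 9.89 at P70, and was higher with age by 0.84 and 0.86. Of class B, 10 of 13 were expressed. Dnajb6, a suppressor of protein aggregation with heat shock element letters in its promoter, stood at 9.02, 9.05, 9.40 and 9.49, and its age difference turned to -0.10 in PBS and -0.24 in OVA after that centring. The ER membrane protein Dnajb14 stood at 8.71, 8.87, 9.42 and 9.33. Of class C, 21 of 27 were expressed, and 5 were higher at P70 in PBS and 8 in OVA, no larger a share than the 29.0% and 38.6% of all expressed genes. Dnajc24, which takes part in diphthamide synthesis on elongation factor 2, stood at 9.16, 8.98, 10.19 and 10.05. Dnajc21, a factor of ribosome biogenesis, stood at 7.90, 7.97, 8.53 and 8.69. Dnajc2, a chaperone bound to ribosomes, stood at 9.08, 9.01, 9.55 and 9.62, and Dnajc4 at 8.80, 8.51, 9.49 and 9.56. For these 4 the P70 arrays lay above the P30 arrays in both treatments; after centring along the level Dnajc2 turned to -0.027 in PBS and -0.076 in OVA. Dnajc7, which binds both HSP70 and HSP90, was higher at P70 by 0.29 in PBS and 0.51 in OVA, and lower than genes of its level (-0.37 and -0.33).

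Other chaperone genes outside the families were described from fixed lists. Their counts with age stand beside 29.0% of all expressed genes higher at P70 in PBS and 38.6% in OVA. The chaperonin CCT, a folding chamber for actin and tubulin, and prefoldin, which delivers substrates to it, were higher at P70. Of their 12 expressed genes 10 were at least 1.5-fold higher in PBS and 12 in OVA, with medians of 1.07 and 0.97, led by Pfdn5 (1.97 and 2.26). After centring along the level the medians were 0.53 and 0.44, with 5 and 4 genes past 1.5-fold. Of 21 expressed partners of HSP70 and HSP90, 12 were higher at P70 in PBS and 10 in OVA, and none lower; after centring along the level 4 were higher and 2 lower in PBS, and 2 and 1 in OVA. The exchange factor gene Bag1 led them, at 10.70 and 10.97 at P30 and at 12.23 and 12.74 at P70. Between OVA and PBS, none of the 21 was 1.5-fold apart at P30, and at P70 Sec63 (0.65) was higher and Ahsa2 (-0.70) lower. After median centring and after centring along the level, none of the 21 was higher at P70 and 1 was lower. Of all expressed genes, 4.04% were higher and 1.25% lower in OVA at P70 as deposited. Of 11 expressed genes of mitochondrial proteostasis, 5 were higher at P70 in PBS and 6 in OVA (none and 1 after that centring), with none 1.5-fold apart between OVA and PBS. The ER stress response list held 23 expressed genes. With age 10 were higher in PBS and 11 in OVA and none lower, led by Selenos (2.11 and 2.07); after centring along the level 2 were higher and 5 lower in PBS, and 3 and 6 in OVA. None was 1.5-fold apart between OVA and PBS at P30, and at P70 Atf6 (0.71), a stress sensor of the ER, and Sel1l (0.63), a part of ER-associated degradation, were higher. In that comparison 1 of the 23 stayed past 1.5-fold after median centring and none after centring along the level. Of the other stress-induced genes, 1 of 7 expressed was higher in OVA at P30, Atf3 (0.96), which the immediate early list also holds.

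The 21 members below the floor had mean levels between 5.10 and 7.09, and the first members above it began at 7.37 (Dnajb7). Of these 21, 3 reached the floor on at least 1 array: Dnajc9 on both P70 arrays (6.70, 6.498, 7.40 and 7.75), Dnajc5b in PBS at P30 and Hspb8 in OVA at P30. Of the testis-enriched list, 3 of 9 were expressed. The smallest means were those of Hspb9 (5.10), Hspb7 (5.16) and Dnajb8 (5.21), named after their values were seen. Differences of members below the floor were not counted.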

How the data were processed

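RNA of the pooled microglia was isolated with TRIzol, cleaned with a Promega system and labelled with biotin through the WT Pico reagents, per the labels' protocols. Each deposited value is a linear intensity of a probe set on an array, summarised by the authors. RMA and Affymetrix Expression Console 1.4.1 are named in the submitters' processing notes; the scaling between arrays and the genome build are not given in the sources used here. Values ran from 8.35 to 999952 over the 4 arrays. Log2 values were used without further normalization (Python 3.11.15, pandas 2.3.3).

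Of 65956 probe sets, 30604 carried 1 symbol in the platform annotation. Symbols of 827 were updated by Entrez ID through RefSeq (GRCm38.p6). Of the 30604, 12703 probe sets whose symbols matched patterns of predicted genes, Rik clones, small RNAs, chemoreceptors or immune receptor segments were dropped. Small RNAs with other symbols, such as Rny3 and mmu-mir-6371, stayed among the expressed genes. The brightest probe set represented a gene. Members and lists were chosen with earlier results of these data known. Genes were counted at 1.5-fold or more. Members were named if stress-inducible, past 1.5-fold, among the 6 highest or lowest in a comparison or among the 2 brightest of a subfamily; others were named after their values were seen. Centring along the level used lowess (statsmodels 0.14.6) over expressed genes. The counting at 1.5-fold was checked on simulated arrays with known changes, which says nothing of replicate error. Alternatives covered filter, normalization, probe sets and threshold.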

Additional observations from a re-analysis of the deposited data

Results flagged for a closer look

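For 4 expressed members the OVA difference had opposite signs at the 2 ages and the ages differed by at least 1.5-fold. With 1 array per group the difference was not tested. They are 8.16% of the expressed members; of all expressed genes, 8.78% met the same description. Dnajc3 differed between OVA and PBS by -0.55 at P30 and 0.30 at P70, so the P70 difference exceeded that at P30 by 0.85. Dnajc1 differed by -0.35 and 0.26, an excess of 0.61. Hspbp1 differed by -0.051 and 0.58, an excess of 0.63, its P30 value being close to 0. After median centring and after centring along the level, Dnajc1 (0.49 and 0.41) and Hspbp1 (0.51 and 0.50) were under 1.5-fold, whereas Dnajc3 (0.73 and 0.67) was past it. Dnajc5g went the other way, at 0.42 and -0.55, a difference between the ages of -0.97, with its OVA value at P70 under the floor, and stayed past 1.5-fold after both centrings (-1.10 and -0.93).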

How the results depend on the processing

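No paired analysis was possible because each group holds 1 array, so no replicate block can be fitted and no replicate can be left out. The medians of the members are small, and several changed sign with the filter or the scaling. Medians with no filter are over all 70 members, and the others over the expressed members. For OVA minus PBS at P30 the median was 0.028 with no filter and 0.0037 after median centring. For OVA minus PBS at P70 it was -0.033 after median centring and -0.079 after centring along the level, and the median difference between the OVA effects was -0.056 and -0.066 under the same settings. For P70 minus P30 in PBS it was 0.18 with no filter, 0.080 after median centring and 0.013 after centring along the level, and in OVA 0.17, 0.029 and -0.053. The members at least 1.5-fold apart with age numbered 8 in PBS after median centring, and 6 in PBS and 11 in OVA after centring along the level. Those are 16.3%, 12.2% and 22.4% of the members, against 25.8%, 20.5% and 24.2% of all expressed genes. Quantile normalization gave 2 members for OVA at P30 (Hspb3 higher, Dnajc3 lower), 4.08% against 1.94%. At a threshold of 1.3-fold the counts were 5 and 9 for OVA at P30 and P70, 23 and 31 for age in PBS and OVA, and 13 for the difference between the OVA effects. In the same order they are 10.2%, 18.4%, 46.9%, 63.3% and 26.5% of the members. Of all expressed genes 6.40%, 16.7%, 46.7%, 57.8% and 24.7% were past 1.3-fold. Among all expressed genes called for age, 90.5% in PBS and 89.8% in OVA were higher as deposited. These shares were 67.3% and 58.2% after median centring and 56.8% and 55.0% after centring along the level. After quantile normalization they were 90.7% and 91.9%. For OVA at P70 the share was 76.4% as deposited, 52.8% after median centring and 51.0% after centring along the level. Quantile normalization gave 87.7% there. After centring along the level, 14 of the 49 expressed members turned from above to below 0 for age in PBS and 16 in OVA, and none the other way. The turns were not counted over all expressed genes. Their median age difference rose from 0.029 between the floor and 8 to 1.01 from 12 upward in PBS, and from 0.055 to 1.23 in OVA. The centring subtracts this trend, so the downward direction of the turns is no result about the members. Of members called as deposited, Dnajc2 (-0.076) and Hsp90b1 (-0.46) turned in OVA; the others that turned there were Dnajb6, Dnajb9, Dnajb12, Dnajb14, Dnajc5, Dnajc7, Dnajc8, Dnajc13, Dnajc16, Dnajc17, Hsf2, Hspa4, Hspa8 and Hspd1. The difference between the OVA effects was past 1.5-fold in 1 member above and 4 below after median centring, and in 1 and 2 after centring along the level, against 3 and 1 as deposited. The alternative of leaving out members with near-identical proteins was not run, since protein sequences were not used here. Leaving out Hspa8, chosen after seeing the data, could not change a count of members past 1.5-fold. Hspa8 was under 1.5-fold in every comparison as deposited. Without replicates, differences under 1.5-fold cannot be set against a measured spread.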

Other observations

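The genes Dnaja1, Dnajc19 and Hspa1b were carried by probe sets of several symbols alone and were not counted as members. The probe set of Dnaja1, shared with a microRNA gene, stood at 9.71 and 9.85 at P30 (PBS first) and at 10.56 and 10.34 at P70. Dnajc19, a J-domain protein of the mitochondrial import motor, shared its probe set with its pseudogene and stood at 10.53, 10.14, 11.69 and 11.82. The probe set shared by Hspa1a and Hspa1b stood at 6.08, 6.33, 6.32 and 6.17, below the floor on every array as Hspa1a was. Of 8 pseudogene probe sets left out, Hspe1-ps4 differed between OVA and PBS by 0.84 at P30 and Hspe1-ps6 by -0.61, whereas Hspe1 differed by -0.14.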
